A study of Mus musculus with 4 samples.

Results

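The genes of the proteasome, the protease complex that degrades ubiquitin-tagged proteins, were followed in B cells from lymph nodes of miR-146a transgenic (TG) and wild type (WT) mice. They were taken as every gene whose platform symbol begins with Psma to Psmg and a number and that has a probe set of its own, each read by its brightest probe set over the 4 arrays. The rule found 47 of 17097 genes. Psmc3ip, a recombination factor of meiosis, and Psme3ip1, a partner of Psme3, matched by name alone and are not subunits, so 45 proteasome genes remained, with 72 probe sets. TG mice carried the miR-146a transgene and WT mice did not. Both groups were male Balb/C mice of 6 to 8 weeks, an inbred strain. There were 2 mice in each group, and every mouse had its own Affymetrix array, hybridised with total RNA of B cells that had been enriched by removing other cells. The promoter and cell type that drive the transgene are not given in the sources used here, and miR-146a itself was not measured in the values used here.

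The proteasome has a barrel, the 20S core, of alpha and beta rings, and caps that open it. In the constitutive core the cutting subunits are Psmb5 (chymotrypsin-like), Psmb6 (caspase-like) and Psmb7 (trypsin-like). In lymphocytes, and in other cells after interferon-gamma, Psmb8, Psmb9 and Psmb10 take the places of Psmb5, Psmb6 and Psmb7 in newly built cores, and the resulting immunoproteasome makes many of the peptides shown on MHC class I. Psmb8 and Psmb9 lie on mouse chromosome 17 within the MHC, beside the genes of the peptide transporter TAP.

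The mature microRNA that the transgene over-expresses is shown first, with its seed (bases 2 to 8) in capitals, from RefSeq on GRCm38.p6.
mmu-miR-146a-5p: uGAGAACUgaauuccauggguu

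Promoters were read from RefSeq on GRCm38.p6, from 250 bases before to 50 bases after each start site, for 37 of the 45 genes (40 promoters). Those of 2 immunoproteasome genes and of their constitutive counterparts are printed because the comparison of these genes is the centre of the results. Capitals mark matches to TTCNNNGAA (a STAT site, which reads the same on both strands) or TGANNNNGC, searched on both strands. TGANNNNGC is a loose form of the core of the antioxidant response element, through which Nfe2l1 drives proteasome genes. A match shows the letters only, not a working element, and 41.3% of all promoters in the table held this one. No printed matches overlap.
Psmb8, chr17:34197945-34198244, plus strand: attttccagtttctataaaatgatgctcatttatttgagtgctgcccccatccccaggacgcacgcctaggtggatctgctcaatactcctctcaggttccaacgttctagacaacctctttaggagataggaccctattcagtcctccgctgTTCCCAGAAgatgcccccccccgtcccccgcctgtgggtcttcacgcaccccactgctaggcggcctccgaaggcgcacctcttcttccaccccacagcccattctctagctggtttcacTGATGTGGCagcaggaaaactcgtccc
Psmb9, chr17:34187281-34187580, minus strand: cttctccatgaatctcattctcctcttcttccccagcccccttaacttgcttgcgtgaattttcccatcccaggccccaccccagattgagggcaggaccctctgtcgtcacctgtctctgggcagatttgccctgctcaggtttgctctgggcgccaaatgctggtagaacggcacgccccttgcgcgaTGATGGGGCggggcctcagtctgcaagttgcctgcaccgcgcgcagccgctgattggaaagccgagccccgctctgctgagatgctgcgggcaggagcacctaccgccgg
Psmb5, chr14:54617946-54618245, minus strand: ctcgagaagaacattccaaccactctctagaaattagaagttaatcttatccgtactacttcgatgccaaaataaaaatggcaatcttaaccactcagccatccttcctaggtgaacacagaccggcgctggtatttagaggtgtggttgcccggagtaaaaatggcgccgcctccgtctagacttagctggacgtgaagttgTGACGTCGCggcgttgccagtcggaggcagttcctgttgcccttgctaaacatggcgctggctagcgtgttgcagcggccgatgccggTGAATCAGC
Psmb6, chr11:70525107-70525406, plus strand: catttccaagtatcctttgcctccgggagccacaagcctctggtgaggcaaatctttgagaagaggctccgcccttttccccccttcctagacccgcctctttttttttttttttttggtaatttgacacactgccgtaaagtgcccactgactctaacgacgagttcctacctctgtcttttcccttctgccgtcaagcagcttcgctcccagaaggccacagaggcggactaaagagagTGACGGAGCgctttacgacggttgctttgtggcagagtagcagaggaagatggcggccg

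The Psmb8 promoter held the STAT match at position -97 from the start site and a TGANNNNGC match at 24. The other promoters shown held TGANNNNGC matches, at -60 in Psmb9, at -47 and 42 in Psmb5 and at -9 in Psmb6. The Psmb10 window held no match to any motif searched. Over the members, 23 of 40 promoters (57.5%) held TGANNNNGC, against 41.3% of the 32851 promoters in the table, and 3 (7.5%) held TTCNNNGAA, against 8.3%. None held either of 2 consensus NF-kB sites, which 0.244% of all promoters held.

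Before the results, the arrays are placed. The array of TG mouse 1 had a median log2 signal of 4.48 and an upper quartile of 6.13, below the medians of 4.59 to 4.61 and upper quartiles of 6.51 to 6.55 of the other arrays. The 3' minus middle signal of beta-actin was 0.47 on that array and 0.14 to 0.16 on the others. Its 3' minus 5' signal was 0.38 there and 0.16 to 0.28 on the others, while for Gapdh that array (0.02) lay within the others (-0.20 to 0.09). The B cell label was checked against markers. Of 10 B cell markers with a probe set all were lower on both TG arrays than on both WT arrays, with summed linear signals of 6884 and 7250 in TG and 12840 and 13510 in WT arrays. Of 9 T cell markers 8 were higher without overlap (13220 and 14630 in TG, 10470 and 10750 in WT arrays), and the other one, Cd4, was lower by 0.79 log2 without overlap, so T cell RNA was present in both groups. All 9 neutrophil markers were higher without overlap (1635 and 2260 in TG, 361.5 and 366.4 in WT arrays). For comparison, 31.4% of all genes were lower and 17.7% higher without overlap. The 6 monocyte and dendritic cell markers summed to 1688 and 2005 in TG and 1326 and 1316 in WT arrays, and the 5 natural killer cell markers to 1172 and 1358 in TG and 1325 and 1344 in WT arrays. Within these sums single markers went opposite ways without overlap, with Lyz2 (0.53), Cd14 (0.97) and Ccr2 (1.19) higher and Flt3 (-0.36) and Itgax (-0.50) lower, and Eomes (1.17) and Prf1 (0.44) higher and Gzma (-0.96) lower. No marker was at 0, since log2 array signals have a floor. Non-specific control probe sets averaged 2.83 to 2.95, and the dimmest B cell marker, Pax5, lay at 4.33 and 4.56 in TG and 4.91 and 4.67 in WT arrays. The part of these differences in the results was not tested, and in bulk RNA fewer cells of a type and less RNA per cell cannot be told apart.

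Proteasome genes had slightly lower signals on the TG than on the WT arrays of enriched B cells, and no single one passed the test. The median difference (TG minus WT) of the 45 genes was -0.24 log2, against -0.05 over all genes and -0.17 over the 4695 genes whose mean signal lay between 7.08 and 11.11, the range of the members without Psma8 and Psmb11. By limma with Benjamini-Hochberg adjustment over 45037 probe sets none of the 45 passed 0.05 (smallest adjusted p = 0.277), where 0.0466% of probe sets and 0.0468% of genes did. At an unadjusted limma p under 0.05 there were 3, all lower (Psmb7, Psmd1 and Psme3), where 10.2% of all genes and 17.2% of those in the same signal range were lower. The difference lay below 0 for 44 of the 45, against 60.2% of all genes and 75% of those in the signal range. Psmd12, a lid subunit of the 19S cap, was the exception at 0.00.

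Most of the difference came from one of the TG arrays. On TG mouse 1 all 45 genes lay below both WT arrays, as did 61.8% of all genes and 82.3% of those in the members' signal range. On TG mouse 2 it was 25 of 45, against 37.7% and 46.3%. Set against the WT mean, the median over the 45 genes was -0.42 on TG mouse 1 and -0.06 on TG mouse 2, and over the genes in that signal range -0.33 and -0.01. The members ran from -0.80 (Psmc4) to -0.18 (Psmb11) on TG mouse 1 and from -1.0 (Psmb7) to 0.26 (Psmd12) on TG mouse 2. TG mouse 1 lay below TG mouse 2 for 42 of the 45 (93.3%), as it did for 74.2% of all genes and 93.9% of those in the signal range, and the exceptions were Psma6, Psmb7 and Psme3. The groups did not overlap for 25 of the 45, all lower in TG, against 31.4% of all genes and 45.3% of those in the signal range. Over the 45 genes the TG arrays stood a median of 0.38 apart and the WT arrays 0.04. Fitted without TG mouse 2, 35 of the 45 passed limma as lower, where 35.7% of all genes did, and without TG mouse 1 the gene that passed was Psmb7. Each of these fits has 1 TG array, which is assumed to vary like the WT arrays. The 35.7% is over genes of any signal, and the share in the members' signal range is not given for that fit. Without TG mouse 1, 29 of the 45 lay below 0 and 16 above.

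**Figure D1:**
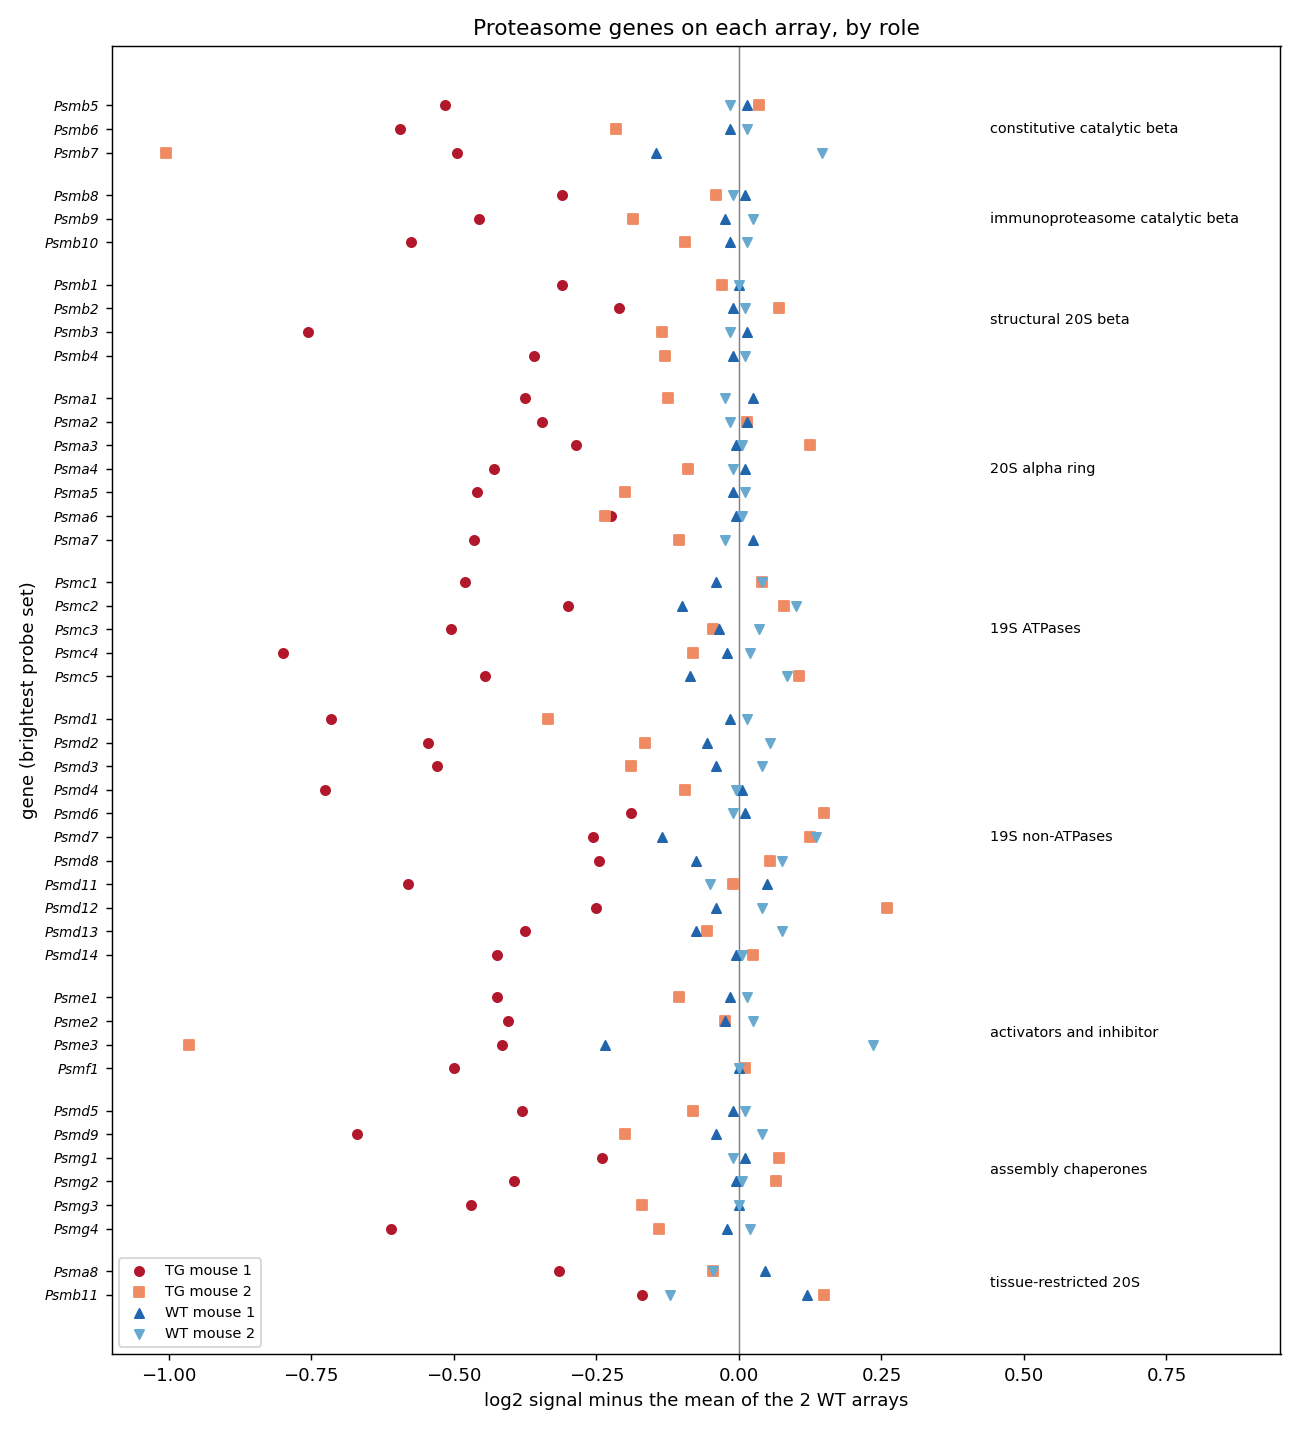
Each row is 1 of 45 proteasome genes (brightest probe set), grouped by role, and each point is the log2 signal of 1 array minus the mean of the 2 WT arrays. TG mouse 1 lies left of both WT arrays in every row, from -0.80 to -0.18, while TG mouse 2 runs from -1.0 (Psmb7) to 0.26 (Psmd12) and lies left of both WT arrays in 25 rows.

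Quantile normalization moved the median by more than 1.5 times. After it the median of the 45 genes was -0.11, against 0.02 over all genes and 0.00 over the signal range, and 36 lay below 0, against 45.7% and 50.5%. The medians on the 2 TG arrays were then -0.13 and -0.06. The groups did not overlap for 24 lower and 4 higher genes after quantile normalization. With it 24.5% of all genes and 33.4% of those in the signal range were lower, and 29.5% and 33.5% were higher. None passed after quantile normalization (smallest limma adjusted p = 0.124, where 1.93% of probe sets passed). After median centring the median was -0.19, with 42 of the 45 below 0.

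**Figure D2:**
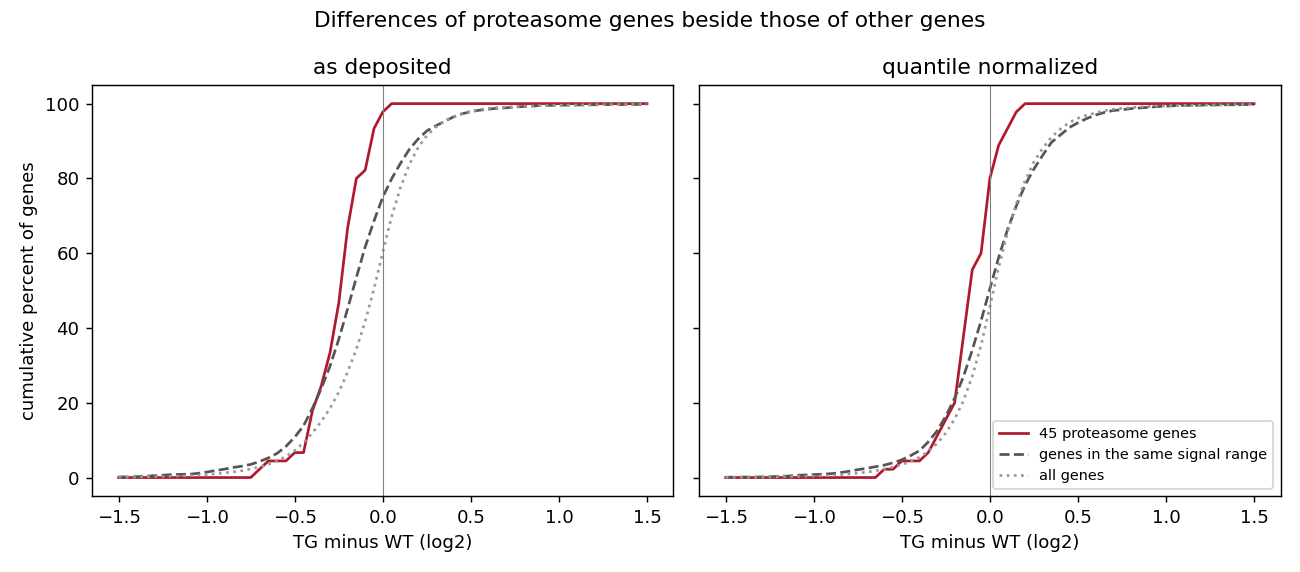
Cumulative percent of genes (vertical axis) at or below a TG minus WT difference (horizontal axis, log2), as deposited and after quantile normalization, for the 45 proteasome genes, for 4695 genes in the same signal range and for all 17097 genes. The proteasome curve is steeper than both others, with medians of -0.24 as deposited and -0.11 after quantile normalization.

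The catalytic subunits were taken first, the immunoproteasome genes before their constitutive counterparts. Psmb8, the chymotrypsin-like immunoproteasome subunit, had log2 signals of 10.62 and 10.89 in TG and 10.94 and 10.92 in WT arrays (difference -0.17, SE 0.13, limma adjusted p = 0.605). Psmb9, which takes the place of Psmb6, had 10.02 and 10.29 in TG and 10.45 and 10.50 in WT arrays (difference -0.32, SE 0.13, adjusted p = 0.384 by limma). Psmb10, which takes the place of Psmb7, had 9.53 and 10.01 in TG and 10.09 and 10.12 in WT arrays (difference -0.33, SE 0.19, limma adjusted p = 0.492). For all 3 both TG arrays lay below both WT arrays, as for 31.4% of all genes and 45.3% of those in the signal range. TG mouse 1 lay at -0.58 to -0.30 from the WT mean and TG mouse 2 at -0.19 to -0.03. After quantile normalization Psmb8 differed by -0.04, and the median of the 3 was -0.20, against -0.32 as deposited.

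Among the constitutive counterparts Psmb5 had 9.09 and 9.64 in TG and 9.62 and 9.59 in WT arrays (difference -0.24, SE 0.20, limma adjusted p = 0.635). Psmb6 had 8.86 and 9.24 in TG and 9.44 and 9.47 in WT arrays (difference -0.41, SE 0.16, limma adjusted p = 0.367). Psmb7 had 9.46 and 8.95 in TG and 9.81 and 10.10 in WT arrays (difference -0.75, SE 0.21, adjusted p = 0.277 by limma). Psmb5 overlapped between the groups, with TG mouse 2 above both WT arrays. Psmb6 and Psmb7 were lower without overlap, as were 31.4% of all genes and 45.3% of those in the signal range. After quantile normalization Psmb5 differed by -0.10, and the median of the 3 was -0.27, against -0.41 as deposited. Psmb7 had the lowest difference of the 45 genes and was the only catalytic gene whose lower TG value came from TG mouse 2. Without TG mouse 1 it passed alone among the 45 (difference -1.0, limma adjusted p = 0.0226, with 1 TG array), where 4.86% of genes were called lower, and without TG mouse 2 its difference was -0.50. Its WT arrays also stood 0.30 apart, the second widest gap of the 45.

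**Figure D3:**
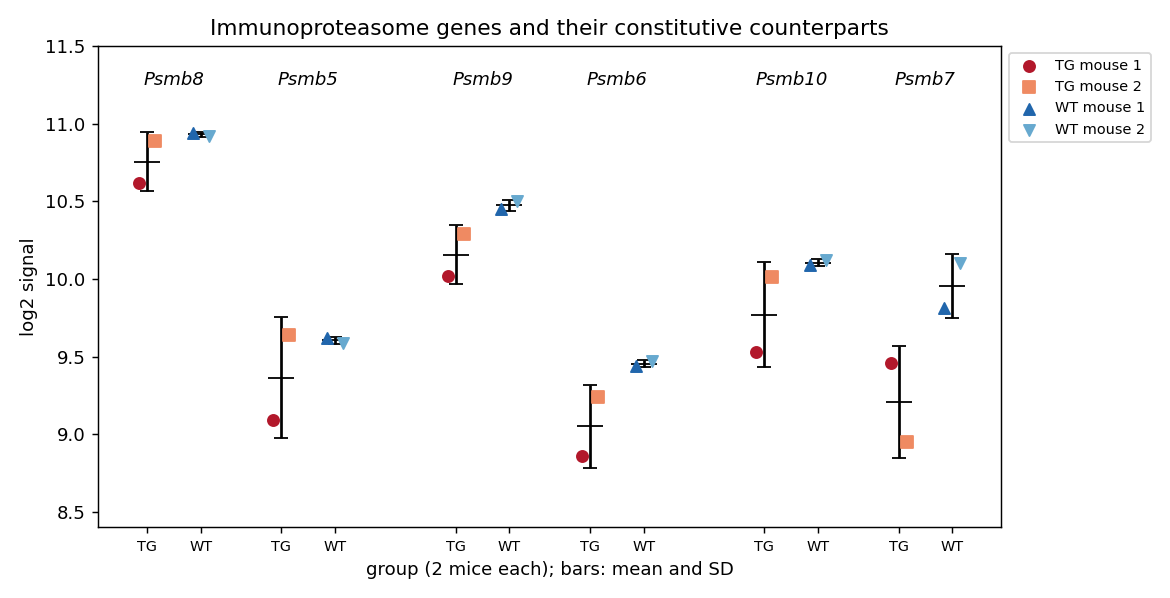
Log2 signals (vertical axis) of the 3 immunoproteasome genes, each beside the constitutive gene it replaces, with 1 point per array and the mean and SD of each group of 2 mice. TG mouse 1 is the lowest array for 5 of the genes shown, and TG mouse 2 is the lowest for Psmb7 at 8.95.

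The question set by these pairs is whether the 2 kinds of core shifted unequally. The difference of the log2 signals of 2 genes on 1 array has no absolute meaning, because probe sets differ in brightness, but it can be followed from array to array. Psmb8 minus Psmb5 was 1.53 and 1.26 in TG and 1.32 and 1.33 in WT arrays, so the groups overlapped (TG minus WT 0.07). Psmb9 minus Psmb6 was 1.16 and 1.05 in TG and 1.01 and 1.02 in WT arrays, higher in TG by 0.09 without overlap. Psmb10 minus Psmb7 was 0.07 and 1.06 in TG and 0.28 and 0.02 in WT arrays, a difference of 0.42 that rests on TG mouse 2. The mean over the 3 pairs was 0.92 and 1.12 in TG and 0.87 and 0.79 in WT arrays, that is 1.02 ± 0.14 in TG and 0.83 ± 0.06 in WT arrays (SD, n = 2 each). The TG minus WT value of 0.19 is given as a description. It was 0.19 after quantile normalization too, 0.29 without TG mouse 1, 0.09 without TG mouse 2 and 0.08 without the pair of Psmb10 and Psmb7.

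**Figure D4:**
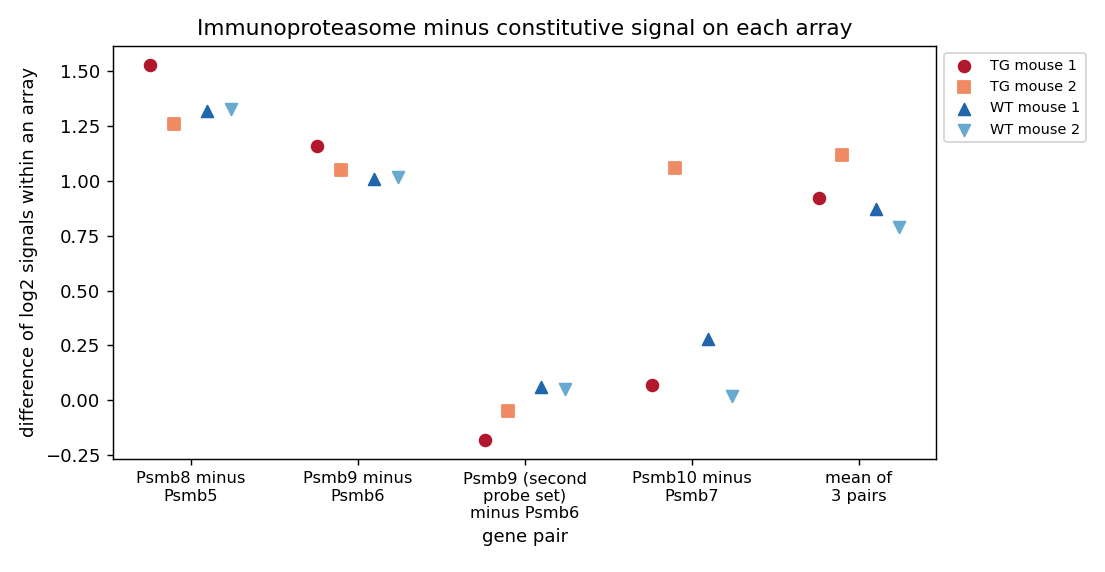
Difference of log2 signals within an array (vertical axis) for each gene pair, for Psmb9 read by its second probe set, and for the mean of the 3 pairs, with 1 point per array. The Psmb10 and Psmb7 pair stands at 1.06 on TG mouse 2 and at 0.02 to 0.28 on the other arrays, and the Psmb9 and Psmb6 pair turns from higher to lower in TG with the probe set.

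The probe set decided the sign of Psmb9 minus Psmb6, although every Psmb9 probe set had a TG minus WT difference below 0 (-0.58 to -0.16). The second Psmb9 probe set, 1416016_PM_at, had 8.68 and 9.19 in TG and 9.51 and 9.53 in WT arrays (difference -0.58, SE 0.19, limma adjusted p = 0.321). With it Psmb9 minus Psmb6 was -0.18 and -0.05 in TG and 0.06 and 0.05 in WT arrays, lower in TG by 0.17 without overlap. With that probe set and without the pair of Psmb10 and Psmb7 the mean over pairs turned to -0.05. The third Psmb9 probe set, 1448177_PM_at, was dim at 4.19 and 4.62 in TG and 4.49 and 4.63 in WT arrays. The second Psmb8 probe set, 1444619_PM_x_at, had 4.72 and 5.16 in TG and 5.21 and 5.28 in WT arrays (difference -0.30), and the other 4 catalytic genes had 1 probe set each.

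The structural beta subunits, which shape the inner rings without cutting, had a median difference of -0.21 over 4 genes. Psmb4 had 10.31 and 10.54 in TG and 10.66 and 10.68 in WT arrays (difference -0.24, limma adjusted p = 0.455). Psmb3 had 9.47 and 10.09 in TG and 10.24 and 10.21 in WT arrays (-0.45, limma adjusted p = 0.462), and its second probe set differed by -0.16. Psmb1 had 10.06 and 10.34 in TG and 10.37 in both WT arrays (-0.18). These 3 were lower without overlap, as were 31.4% of all genes and 45.3% of those in the signal range, and Psmb2 overlapped (-0.07). After quantile normalization the sign of Psmb2 turned to 0.07.

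The alpha ring, the gate of the core, had a median difference of -0.25 over 7 genes. Of these 5 were lower without overlap, against 31.4% of all genes and 45.3% of those in the signal range. Psma5 had 9.10 and 9.36 in TG and 9.55 and 9.57 in WT arrays (difference -0.33, SE 0.13, limma adjusted p = 0.367). Psma6 had 10.45 and 10.44 in TG and 10.67 and 10.68 in WT arrays (-0.23, limma adjusted p = 0.394), with both TG arrays at one level, unlike most members. After quantile normalization the groups overlapped for Psma6 (-0.10). Psma1 had 9.66 and 9.91 in TG and 10.06 and 10.01 in WT arrays (-0.25). The others ran from -0.28 (Psma7) to -0.08 (Psma3), and Psma3 turned to 0.05 after quantile normalization.

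Of the 19S cap, the ATPases unfold substrates and thread them into the core. Their median difference was -0.22 over 5 genes. Of these 2 were lower without overlap (Psmc3 and Psmc4), against 31.4% of all genes and 45.3% of those in the signal range. Psmc4 had 9.02 and 9.74 in TG and 9.80 and 9.84 in WT arrays (-0.44, SE 0.25, limma adjusted p = 0.509), so its value rests on TG mouse 1, and its second probe set differed by -0.14. Psmc3 had 9.09 and 9.55 in TG and 9.56 and 9.63 in WT arrays (-0.27). Psmc1 had 8.15 and 8.67 in TG and 8.59 and 8.67 in WT arrays (-0.22), and without TG mouse 1 the sign turned to 0.04. Psmc2 (-0.11) and Psmc5 (-0.17) overlapped as well.

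The non-ATPase subunits of the cap bind, hold and deubiquitinate substrates. Their median was -0.22 over 11 genes, 4 of them lower without overlap, against 31.4% of all genes and 45.3% of those in the signal range. Psmd1, a large scaffold of the base, had 7.93 and 8.31 in TG and 8.63 and 8.66 in WT arrays (-0.52, SE 0.16, limma adjusted p = 0.293). It lay lower on both TG arrays, at -0.71 on TG mouse 1 and -0.33 on TG mouse 2 relative to the WT mean, and at -0.38 and -0.32 after quantile normalization (limma adjusted p = 0.124). Psmd3 had 7.94 and 8.28 in TG and 8.43 and 8.51 in WT arrays (-0.36), and Psmd2, the other base scaffold, had 8.47 and 8.85 in TG and 8.96 and 9.07 in WT arrays (-0.35). Psmd4, a ubiquitin receptor, differed by -0.41 on its brightest probe set and by -0.17 and -0.10 on the other 2. Psmd11 (-0.29) and Psmd13 (-0.22) overlapped. Psmd14, the deubiquitinase of the lid, overlapped at -0.20, with TG mouse 2 at the WT level. Psmd6, Psmd7, Psmd8 and Psmd12, at -0.09 to 0.00, all had positive signs after quantile normalization (0.04 to 0.18). Other probe sets of Psmd6 and Psmd7 went the other way. The second of Psmd6 differed by -0.44 (-0.28 after quantile normalization). Those of Psmd7 differed by -0.50 and -0.51 (-0.29 and -0.51), lower without overlap. The Psmd7 probe set at -0.51 was dim, with 3.13 and 3.73 in TG and 3.84 and 4.04 in WT arrays.

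Activators and an inhibitor bind the ends of the core. Psme1 and Psme2 form PA28, the interferon-inducible activator that works with immunoproteasomes. Psme1 had 10.82 and 11.14 in TG and 11.23 and 11.26 in WT arrays (-0.26, limma adjusted p = 0.483). Psme2 had 10.54 and 10.92 in TG and 10.92 and 10.97 in WT arrays (-0.21), with TG mouse 2 level with WT. Psme3, the nuclear activator PA28-gamma, had 7.70 and 7.15 in TG and 7.88 and 8.35 in WT arrays (-0.69, SE 0.26, limma adjusted p = 0.359), with the widest gap between WT arrays of the 45 genes (0.48). Its second probe set, 1418079_PM_at, did not show this: it had 6.83 and 7.49 in TG and 7.25 in both WT arrays (-0.09), with TG mouse 2 the highest array. Psmf1, the inhibitor PI31, overlapped on its brightest probe set (-0.24) and differed by -0.69, -0.32 and -0.09 on the other 3.

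Assembly chaperones build the core (Psmg1 to Psmg4) and the base of the cap (Psmd5 and Psmd9). Their median was -0.27 over 6 genes, 4 of them lower without overlap, against 31.4% of all genes and 45.3% of those in the signal range. Psmd9 had 6.63 and 7.10 in TG and 7.26 and 7.34 in WT arrays (-0.44, limma adjusted p = 0.394), and its other probe sets differed by -1.20 and -0.02. Psmg3 had 7.06 and 7.36 in TG and 7.53 in both WT arrays (-0.32). Psmg4 had 7.78 and 8.25 in TG and 8.37 and 8.41 in WT arrays (-0.38). Psmg1 and Psmg2 overlapped, at -0.08 and -0.17, and Psmd5 differed by -0.23.

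**Figure D5:**
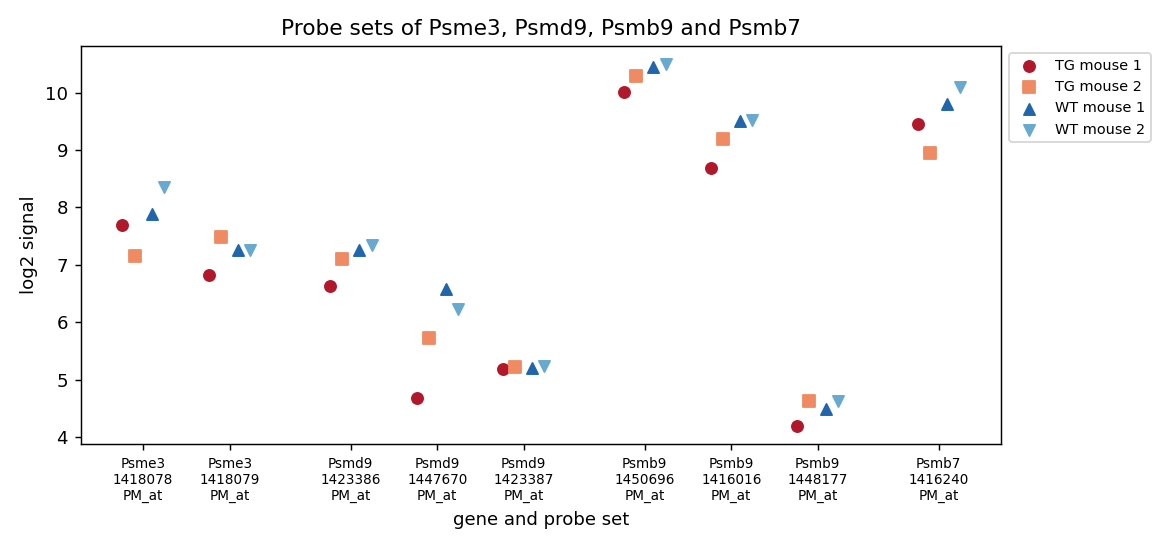
Log2 signals (vertical axis) of every probe set of Psme3, Psmd9, Psmb9 and Psmb7, with 1 point per array. TG mouse 2 is the lowest array on the first Psme3 probe set (7.15) and the highest on the second (7.49), whereas Psmb7 has a single probe set.

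The tissue-restricted core subunits served as a check of the floor. Psma8, known from testis, had 3.11 and 3.38 in TG and 3.47 and 3.38 in WT arrays, near the control probe sets, and was the 1 member below the filter on dim probe sets (4.10). Psmb11, known from the thymic cortex, had 4.13 and 4.45 in TG and 4.42 and 4.18 in WT arrays. Of 17 members with several probe sets, 4 had signs that disagreed between them (Psmc1, Psmd2, Psmd11 and Psmg4). In each case the probe set above 0 was a dim one, with no value above 4.89.

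The core of the interferon-stimulated response element, a pair of GAAA runs set 2 bases apart, was found on either strand in 5 of the 40 member promoters (12.5%), against 3.44% of all promoters in the table. The windows that hold it are shown, on the strand of the gene and with the match in capitals. They were picked after the values were seen, because the differences of these genes lay close together.
Psmb3, chr11:97703261-97703290, plus strand: cacagtgactTTTCACTTTCcgctttccat
Psmd4, chr3:95042675-95042704, minus strand: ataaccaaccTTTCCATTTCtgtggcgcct
Psmd9, chr5:123228021-123228050, plus strand: gggacagaatGAAAAAGAAAggaatgaaca
Psme1, chr14:55578493-55578522, plus strand: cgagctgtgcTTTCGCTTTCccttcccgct
Psmg4, chr13:34162969-34162998, plus strand: gcgcgcatctGAAAGTGAAAgagcgttccg

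These 5 genes differed by -0.45 (Psmb3), -0.41 (Psmd4), -0.44 (Psmd9), -0.26 (Psme1) and -0.38 (Psmg4), a median of -0.41. Against the WT mean the 5 lay at -0.76 to -0.42 on TG mouse 1 and at -0.20 to -0.09 on TG mouse 2. The 32 members whose promoter lacked the letters had a median of -0.23, with a range of -0.69 to 0.00. Psmb7 (-0.75) had no promoter here and is in neither set. The members with the STAT match differed by -0.17 (Psmb8), -0.35 (Psmd2) and -0.08 (Psmg1). After quantile normalization the medians were -0.22 and -0.09. The motif was singled out because these 5 values lay close together, so nothing is drawn from their closeness. The split was made after the values were seen and was not tested. For Psmb3, Psmd4 and Psmd9 other probe sets differed by as little as -0.16, -0.10 and -0.02, and for Psmg4 a dim one by 0.04. The 3 immunoproteasome catalytic genes, which interferon is known to induce, held no such match in these windows.

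Genes that work with the proteasome did not pass either. Of 24 partners and regulators 18 had a probe set, 8 were lower and 1 higher without overlap, and the median was -0.14. Over all genes 31.4% were lower and 17.7% higher without overlap, and in the members' signal range 45.3% were lower and 12% higher. After quantile normalization 6 were lower and 4 higher, against 24.5% and 29.5% of all genes, and the median turned to 0.02. Rad23b, a shuttle for ubiquitinated proteins, had 7.71 and 7.80 in TG and 8.18 and 8.29 in WT arrays (-0.48, limma adjusted p = 0.212). Nfe2l1, the factor that drives proteasome genes when the complex is short, had 7.45 and 7.62 in TG and 7.85 and 7.88 in WT arrays (-0.32, limma adjusted p = 0.332), and -0.14 after quantile normalization. Zfand5, at 3.30 and 3.65 in TG and 4.0 and 3.96 in WT arrays, and Usp14, a deubiquitinase of the cap, differed by -0.51 and -0.43. The 1 higher gene was Uchl5, with 8.16 and 8.64 in TG and 7.97 in both WT arrays (0.42, limma adjusted p = 0.41). After quantile normalization Uchl5 differed by 0.60 (limma adjusted p = 0.0588) and Usp14 by -0.20. Of the ubiquitin and E1 list 1 of 6 genes had a probe set here, Uba6 (-0.32).

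Of 14 genes of class I peptide loading, the pathway that uses the immunoproteasome's products, 10 had a probe set, 3 were lower and 3 higher without overlap, against the same 31.4% and 17.7% of all genes, and the median was -0.07. After quantile normalization 2 were lower and 3 higher, against 24.5% and 29.5% of all genes, and the median turned to 0.03. Tapbp, which holds class I molecules at the peptide transporter, had 10.53 and 10.76 in TG and 11.11 and 11.14 in WT arrays (-0.48, limma adjusted p = 0.243). Irf1, an interferon-induced activator of immunoproteasome genes, had 9.10 and 9.47 in TG and 9.71 and 9.79 in WT arrays (-0.46, limma adjusted p = 0.321). Pdia3 differed by 0.36 at a dim 4.25 to 4.74, and H2-D1, a class I heavy chain whose probes may also read related chains, by 0.20.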

How the data were processed

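The series holds 4 arrays of B cell total RNA. Per the labels' protocols, other cells and dead cells were removed magnetically and RNA was labelled from the 3' end of transcripts. The authors deposited 1 log2 signal per probe set and array. Their background correction, normalization and summarisation were not stated, and the values themselves show the log2 scale. Groups and mouse numbers came from titles.

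After 104 control probe sets were set aside, 45037 were fitted with lmFit and eBayes of limma 3.58.1 (R 4.3.3). Tests were two-sided with Benjamini-Hochberg adjustment, a threshold of 0.05 and 2 residual degrees of freedom, and the fit was tested on simulated data. With 2 against 2 an exact permutation test cannot give a two-sided p below 0.333. The platform annotation gave 1 gene for 28898 probe sets, several for 551 and none for 15588. Members, related lists (partners, class I loading, ubiquitin genes), markers of 5 cell types and motifs were chosen with earlier results of these data known. Values in every array are given for the 6 catalytic genes and the 3 smallest p per role. From each related list at most 4 genes by smallest p are named, and Uchl5 was added because it went the other way. Other members were named after their values were seen. The labels tie no TG mouse to a WT mouse. The p-values rest on the spread between only 2 mice a group. Through eBayes they also draw on a variance shared across all probe sets (prior degrees of freedom 2.69). No filter on dim probe sets was applied to the values given, and as an alternative it left out Psma8. Figures used matplotlib 3.10.9.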

Additional observations from a re-analysis of the deposited data

How the results depend on the processing

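None of the 45 proteasome genes passed limma's adjusted p under 0.05 as deposited, after quantile normalization, median centring, a trended and robust eBayes, averaging of all probe sets per gene, or with the replicate block, and none of the 44 left by the filter on dim probe sets did. Over all probe sets 21 passed as deposited (17 higher, 4 lower). The count was 870 after quantile normalization (402 higher, 468 lower), 614 after median centring (189 higher, 425 lower), 51 with the filter on dim probe sets and 33 of the averaged genes. With the mouse number as a replicate block 15 passed. Arrays with the same mouse number showed no shared deviation (correlation 0.0145), and the block changed no call among the proteasome genes. After quantile normalization the median of the immunoproteasome catalytic genes was -0.20, against -0.32 as deposited, and that of the constitutive catalytic genes -0.27, against -0.41. Of the alternatives added after the data were seen, the immunoproteasome minus constitutive value of 0.19 was 0.11 with the second Psmb9 probe set, 0.08 without the pair of Psmb10 and Psmb7, and -0.05 with both. The cause of these shifts was not tested.

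Leaving out 1 array in turn, the count over all probe sets ranged from 0 to 19110 and that of proteasome genes from 0 to 35. The 0 over all probe sets came without WT mouse 1 or WT mouse 2 (1631 and 1576 at an unadjusted limma p under 0.05). Without TG mouse 2, 35 proteasome genes passed, all lower, where 35.7% of genes were called lower, and the lone TG array is then assumed to vary like the WT arrays. Of 24 genes named by rule, 22 passed in that fit. Without TG mouse 1, where the lone TG array is assumed likewise, Psmb7 passed, 29 of the 45 lay below 0, against 44 with all arrays, and 16 above. Among the genes above 0 were Psmb5 (0.04) and Psmc1 (0.04). Over the arrays left out these 2 ranged from -0.51 to 0.04 and from -0.48 to 0.04. The medians ranged from -0.42 to -0.06 for the 45 genes, from -0.46 to -0.09 for the immunoproteasome genes and from -0.51 to -0.22 for the constitutive genes, and the difference of the 2 kinds from 0.09 to 0.29. The share of genes called lower without TG mouse 2 was taken over genes of any signal, not over those in the members' signal range. The number of arrays limits the precision, and low signals have no background flag.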
